A study of Mus musculus with 32 samples.

Results

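The aryl hydrocarbon receptor (AHR) pathway was followed through 5 mouse genes taken by name as its members, namely the receptor Ahr, its partners Arnt and Arnt2, its repressor Ahrr and its target Tiparp. They are 5 of 26244 genes in the E19.5 table, and 4 of them, all but Ahrr, are among the 19404 genes of the E15.5 table. The data are 32 bulk RNA-seq libraries of cells flow-sorted from the embryonic mouse thymus at E15.5 (14 libraries) and E19.5 (18 libraries). All mice belonged to a reporter strain that the labels call 5x polychromILC, with no further allele given. DN1, a name for the earliest thymocytes lacking CD4 and CD8, was divided by BCL11b, a factor switched on as cells commit to the T lineage, and by ID2, an inhibitor of E proteins that is high in innate lymphoid cells (ILCs).

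The gates at both stages were BCL11b+ID2+, BCL11b+ID2-, BCL11b-ID2+ and BCL11b-ID2- DN1 cells, and DN2 cells, by name the next stage. At E19.5 DN1 cells low for both proteins were sorted too (BCL11blowID2low). There were 3 libraries per gate, but 2 for DN2 at E15.5. The labels do not state whether the 3 came from different animals. The p-values therefore measure the spread between libraries, and that spread may be technical only. All values are normalised read counts as deposited, from a separate table for each stage, so levels are not compared between the stages.

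AHR is a transcription factor of the bHLH-PAS family. In the cytosol it is held by HSP90 and other chaperones until it binds a small molecule, such as an environmental pollutant or a product of tryptophan metabolism. It then enters the nucleus, pairs with ARNT or the related ARNT2, and binds DNA at elements with a GCGTG core. AHRR competes with AHR for ARNT, and TIPARP, a mono-ADP-ribosyltransferase, is induced by AHR and dampens it. In lymphoid tissue the receptor is known for its part in the upkeep of type 3 ILCs and of interleukin-22 and interleukin-17 production, and it is also expressed in tissue-resident NK cells, ILC1 and ILC2.

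RefSeq promoters (GRCm38.p6) were matched for 4 of the 5 members, all but Ahr, and the 250 bases before each start were searched on both strands for GCGTG. Ahrr and Tiparp are shown because they are the feedback targets among the members, and Arnt2 because its level differed most between gates. Each reads 5′ to 3′ on the gene's own strand, and capitals mark the GCGTG letters, or CACGC where the match lies on the other strand. The Ahrr window lies at chr13:74292332-74292581 on the minus strand, Tiparp at chr3:65528197-65528446 on the plus strand and Arnt2 at chr7:84410039-84410288 on the minus strand.
Ahrr: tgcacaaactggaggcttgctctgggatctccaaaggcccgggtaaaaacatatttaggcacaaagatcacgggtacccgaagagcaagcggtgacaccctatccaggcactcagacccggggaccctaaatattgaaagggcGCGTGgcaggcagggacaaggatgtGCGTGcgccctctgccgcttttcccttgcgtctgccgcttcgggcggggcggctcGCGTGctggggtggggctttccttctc
Tiparp: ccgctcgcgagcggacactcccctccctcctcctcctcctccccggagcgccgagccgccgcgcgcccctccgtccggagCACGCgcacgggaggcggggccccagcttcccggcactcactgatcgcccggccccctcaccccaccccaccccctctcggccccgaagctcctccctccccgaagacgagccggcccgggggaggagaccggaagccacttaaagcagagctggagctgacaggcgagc
Arnt2: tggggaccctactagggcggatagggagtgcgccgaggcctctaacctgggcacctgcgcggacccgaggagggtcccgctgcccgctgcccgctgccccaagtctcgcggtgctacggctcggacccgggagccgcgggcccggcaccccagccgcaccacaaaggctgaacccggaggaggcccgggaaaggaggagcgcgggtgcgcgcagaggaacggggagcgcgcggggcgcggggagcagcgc
Positions are counted back from the start, with -1 for the last base shown. Ahrr held 3 matches, with first bases at -107, -82 and -27, and the match at -27 is part of the longer TNGCGTG. Tiparp held 1 match, on the other strand at -170, and Arnt held 1 at -29. Arnt2 held no match, which says only that these letters are not in this window. GCGTG was found in 28.2% of 32851 RefSeq promoter windows of the same length and 3 or more matches in 2.77%, while TNGCGTG, which overlaps GCGTG by construction, was in 4.1%. A match is a description of the letters, not a site.

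E15.5 libraries held 12030749 to 20709387 reads, with 52.8 to 81.6% on mitochondrial genes. E19.5 libraries held 2599470 to 9498133, with 29.9 to 60.2% on those genes. All 8 markers of sorted thymocytes, CD45 (Ptprc) among them, had reads in every gate. Id2 followed the gates at E19.5, where it averaged 1119 ± 138 in BCL11b+ID2+ and 19.6 ± 15.9 in BCL11b+ID2- cells (SD, n = 3 each). It averaged 1438 ± 140.0 in BCL11b-ID2+ cells, against 21.2 ± 3.2 in BCL11b-ID2- cells. Bcl11b at E19.5 held 409 to 596 in BCL11b+ID2+ and 1469 to 2076 in BCL11b+ID2- libraries, against 2.89 to 39.2 in the BCL11b-negative gates. BCL11blowID2low libraries held 376 to 491 for Bcl11b, which overlaps with BCL11b+ID2+, and 159 to 183 for Id2, which lies between the ID2-positive and ID2-negative gates. At E15.5 the fit to the gates was looser. Library 1 of BCL11b+ID2+ held 85.0 for Id2, below the 126 of library 1 of BCL11b-ID2-, and library 1 of BCL11b-ID2+ held 509 for Bcl11b, against 7.03 and 56.1 in the others of that gate. Columns of the E15.5 table bear a bare number, taken here as the barcode given with each sample, and all E15.5 gates depend on that.

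Ahr (ENSMUSG00000019256, GRCm38 chr12:35497974-35535038, minus strand) had the highest level of the 5 members per kilobase of exon in the ID2-positive gates at E19.5, with 134 ± 45.0 normalised counts per kilobase in BCL11b+ID2+ and 232 ± 30.1 in BCL11b-ID2+ cells (SD, n = 3 each). Its normalised counts were 1143, 626 and 710.3 in the 3 BCL11b+ID2+ libraries, against 81.6, 119 and 155 in BCL11b+ID2- libraries. In BCL11b-ID2+ cells they were 1472, 1592 and 1227, against 176, 54.3 and 91.2 in BCL11b-ID2- cells. Every ID2-positive library was thus above every ID2-negative one. BCL11blowID2low libraries held 194, 122 and 172 and DN2 libraries 332, 157 and 125, so both gates lay near the ID2-negative cells. Ranked by mean, BCL11b-ID2+ (1430.1 ± 186) came before BCL11b+ID2+ (826 ± 277), with no overlap between their libraries, and BCL11b+ID2+ lay clear of DN2 (205 ± 111; SD, n = 3 each). DN2, BCL11blowID2low, BCL11b+ID2- and BCL11b-ID2- followed, and each neighbouring pair among these 4 overlapped. In bulk libraries, fewer cells that carry a transcript and less of it per cell cannot be told apart.

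**Figure D1:**
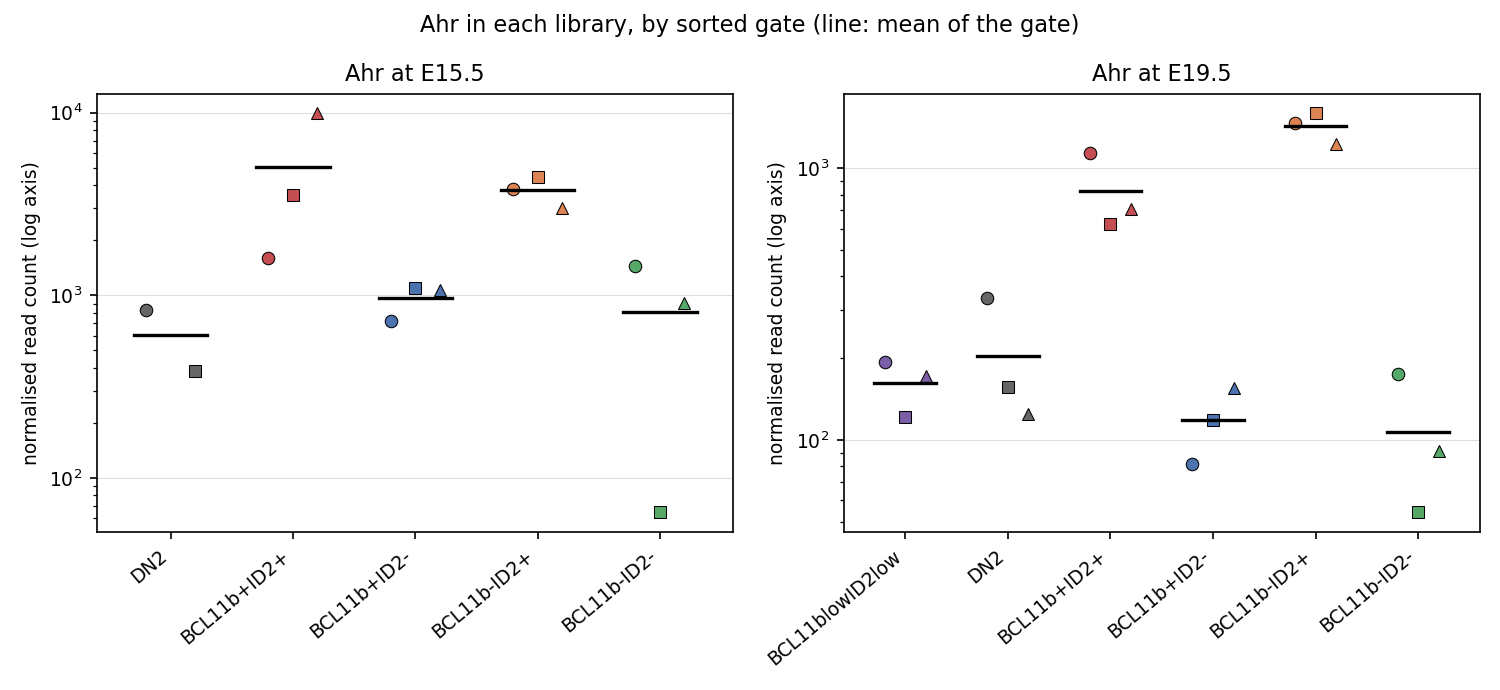
Normalised count of Ahr (log axis) by gate at each stage, with 1 point per library, a symbol for each library number and a black line at the gate mean. At E19.5 the BCL11b+ID2+ and BCL11b-ID2+ libraries sit between 626 and 1592, above all libraries of the other gates, which reach 332 at most.

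Among BCL11b-positive cells at E19.5, Ahr was 6.97-fold higher in the ID2-positive than in the ID2-negative gate, with a log2 difference of 2.79 ± 0.39 (SE, 95% interval 1.98 to 3.60, limma adjusted p = 3.81e-05). Among BCL11b-negative cells it was 13.4-fold higher in the ID2-positive gate (log2 difference 3.88 ± 0.39, 95% interval 3.07 to 4.69, adjusted p = 1.94e-07). Both calls held under every alternative processing, with the adjusted p of the first reaching 0.000791 at most. Members called numbered 2 of 4 tested in each of these comparisons, Ahr and Arnt2, both higher, where 8.73% and 15.9% of all genes were called. Ahrr had too few reads to be tested at E19.5.

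The difference between these ID2 differences, the interaction, was -1.09 ± 0.55 for Ahr on the log2 scale and did not pass (adjusted p = 0.252). Between the ID2-positive gates, Ahr was 1.73-fold lower in BCL11b+ID2+ than in BCL11b-ID2+ cells, with no overlap of libraries (log2 difference -0.83, 95% interval -1.64 to -0.02, unadjusted p = 0.0440 and adjusted p = 0.304 in limma). It did pass when only these 6 libraries were fitted (adjusted p = 0.0313). BCL11blowID2low cells held 5.08-fold less Ahr than BCL11b+ID2+ cells (log2 difference -2.31, 95% interval -3.12 to -1.51, adjusted p = 0.000725). Against BCL11b+ID2- cells the log2 difference of BCL11blowID2low was 0.48 (95% interval -0.33 to 1.28, adjusted p = 0.528). These comparisons share gates with each other, so their values are not independent.

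ARNT (Arnt, ENSMUSG00000015522, chr3:95434388-95497240, plus strand) is the general partner, and ARNT2 (Arnt2, ENSMUSG00000015709, chr7:84246278-84410176, minus strand) is best known from the nervous system. At E19.5 they behaved unlike each other. Arnt lay between 98.9 and 493 in all 18 libraries, with a median of 221. It held 240.4, 355 and 221 in BCL11b+ID2+ libraries, against 231, 207 and 178 in BCL11b+ID2- libraries. BCL11b-ID2+ libraries held 270.0, 375 and 165, against 221, 264 and 142 in BCL11b-ID2- libraries. BCL11blowID2low libraries held 493, 322 and 155 and DN2 libraries 98.9, 198 and 158. All of these gates overlapped with their neighbours in level, and none of the 9 comparisons called Arnt, with log2 differences from -0.48 to 0.52 and adjusted p of 0.440 to 0.993 (limma, with 0 at an unadjusted p under 0.05). It was called 0 times by edgeR and 0 times by DESeq2. The widest of the 95% intervals still allow log2 differences from -1.29 to 1.33.

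Arnt2 was nearly absent from the ID2-negative gates. BCL11b+ID2+ libraries held 46.3, 25.4 and 67.3, against 0, 1.07 and 3.69 in BCL11b+ID2- libraries, which together carried 5 reads. BCL11b-ID2+ libraries held 341, 517 and 321, against 1.22, 0 and 0 in BCL11b-ID2- libraries, which carried 1 read. The libraries of the ID2-positive gates lay far above those of their ID2-negative counterparts. BCL11blowID2low libraries held 58.1, 16.8 and 42.0 and overlapped with BCL11b+ID2+, while DN2 libraries held 0, 0 and 0.727. In order of mean, BCL11b-ID2+ lay clear of BCL11b+ID2+, and BCL11blowID2low lay clear of BCL11b+ID2-, whereas BCL11b+ID2-, BCL11b-ID2- and DN2 overlapped.

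**Figure D2:**
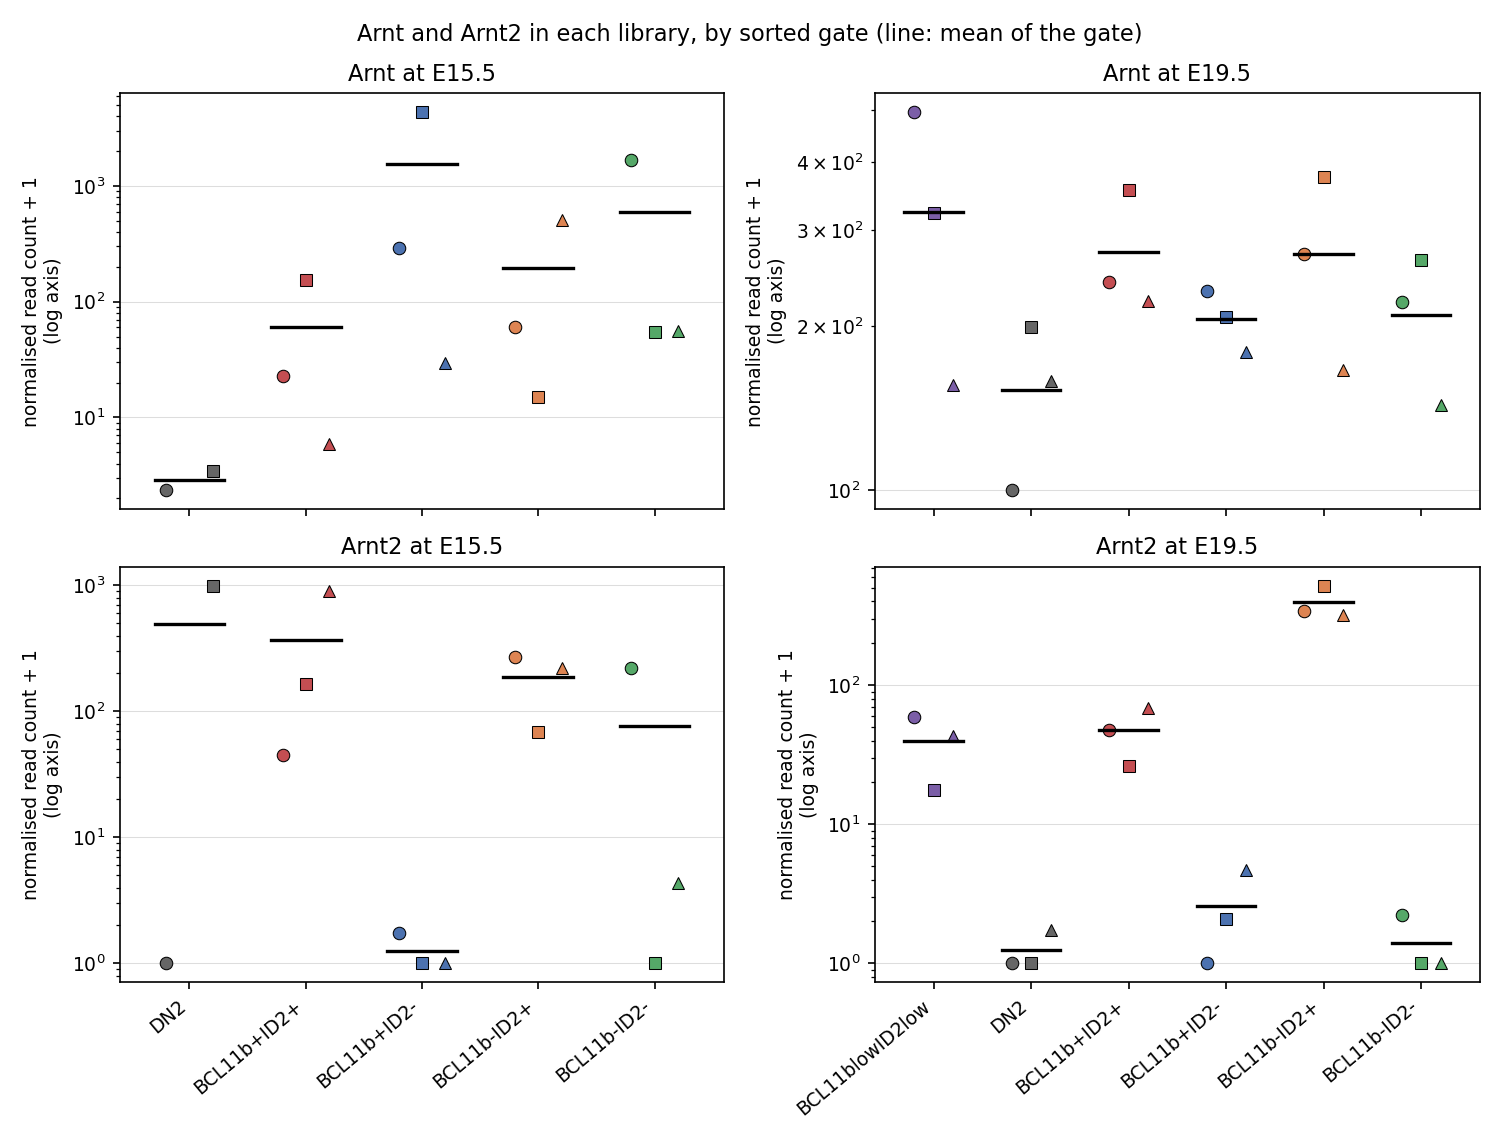
Normalised count plus 1 (log axis) of Arnt and Arnt2 by gate at each stage, with 1 point per library and a black line at the gate mean. At E19.5 Arnt spans 98.9 to 493 over all gates, while Arnt2 is at 321 to 517 in BCL11b-ID2+ libraries and at 1.22 or less in BCL11b-ID2- libraries.

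Arnt2 was 29.2-fold higher in BCL11b+ID2+ than in BCL11b+ID2- cells (log2 difference 4.37 ± 0.81 SE, limma adjusted p = 0.000877). In BCL11b-ID2+ against BCL11b-ID2- cells it was 966-fold higher, with a 95% counting interval of 173 to 38195 that reflects the 1 read (log2 difference 8.20 ± 0.81, adjusted p = 1.45e-07). Such intervals, and the floors used below, cover counting error only. The interaction passed for Arnt2, at -3.84 ± 1.14 (95% interval -6.21 to -1.47, adjusted p = 0.0360), and it was the 1 member of 4 called there, where 9.28% of all genes were called. It did not pass without the filter on low values (adjusted p = 0.0576), nor in 9 of 12 fits that left out a single library, where adjusted p reached 0.0980. Those 9 left out BCL11b+ID2+ library 1 or 2, BCL11b+ID2- library 2 or 4, any BCL11b-ID2+ library, or BCL11b-ID2- library 2 or 4.

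Directly between the ID2-positive gates, Arnt2 was 8.48-fold lower in BCL11b+ID2+ than in BCL11b-ID2+ cells (log2 difference -3.13 ± 0.81, adjusted p = 0.0187). It was the 1 member of 4 called in that comparison, against 6.03% of all genes. The call was lost in 5 of 6 fits without a single library, with adjusted p up to 0.112, and held only without BCL11b+ID2+ library 4, although the libraries of the gates did not overlap. Arnt2 was also higher in BCL11blowID2low than in BCL11b+ID2- cells, 24.5-fold (log2 difference 4.06 ± 0.81, adjusted p = 0.00302), a call that was lost when only these 6 libraries were fitted (adjusted p = 0.0891). Against BCL11b-ID2- cells it was 95.8-fold higher in BCL11blowID2low (95% counting interval 16.8 to 3820, log2 difference 4.77, adjusted p = 0.000192). BCL11blowID2low and BCL11b+ID2+ cells did not differ detectably in Arnt2 (log2 difference -0.31, 95% interval -1.98 to 1.37, adjusted p = 0.909). In these BCL11blowID2low comparisons 1 of 4 members was called each, Arnt2 against BCL11b+ID2- and BCL11b-ID2- cells and Ahr against BCL11b+ID2+ cells, where 6.91%, 14% and 4.43% of all genes were called.

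Put on a scale of counts per kilobase of exon, mean Arnt2 exceeded mean Arnt at E19.5 in BCL11b-ID2+ cells only. Arnt itself was not called in any comparison of that stage. Arnt2 made up 60.9 ± 5.36% of the sum of Arnt and Arnt2 per kilobase in BCL11b-ID2+ cells, against 0.191 ± 0.330% in BCL11b-ID2- cells (SD, n = 3 each). Its share was 15.9 ± 8.59% in BCL11b+ID2+ cells, against 0.883 ± 1.1% in BCL11b+ID2- cells. BCL11blowID2low cells had 12.7 ± 8.56% and DN2 libraries 0 to 0.478%. The lowest BCL11b-ID2+ library, at 56.8%, lay above the highest library of any other gate at E19.5, 24.1% in BCL11b+ID2+. Shares at E15.5 were 53.0 to 99.5% in BCL11b+ID2+, against 0 to 0.260% in BCL11b+ID2-, and 31.1 to 83.4% in BCL11b-ID2+, against 0 to 12.1% in BCL11b-ID2-. The E15.5 DN2 libraries stood at opposite ends, at 0 and 99.8%, each with 2 reads of Arnt. These E15.5 shares depend on an erratic Arnt, and the 99.5% rests on 3 reads of Arnt. The 12.1% came from library 1 of BCL11b-ID2-, where Arnt was at 1676. Arnt2 in that library was 222, within the 68.0 to 269 of BCL11b-ID2+ libraries, so Arnt2 itself overlapped between these gates.

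**Figure D3:**
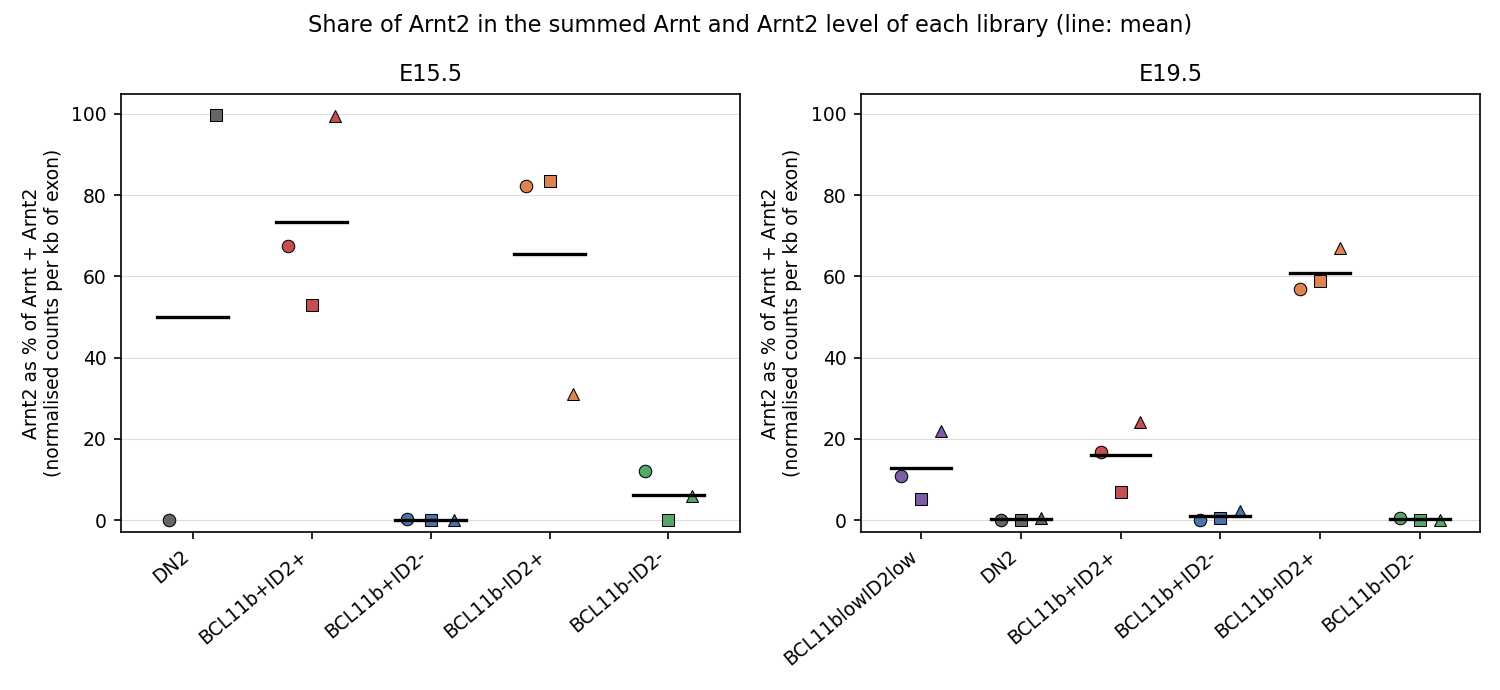
Share of Arnt2 in the sum of Arnt and Arnt2, both per kilobase of exon (percent), by gate at each stage, with 1 point per library and a black line at the gate mean. At E19.5 the BCL11b-ID2+ libraries lie at 56.8 to 67.0% and those of BCL11b-ID2- cells at 0.572% or less.

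Ahrr (ENSMUSG00000021575, chr13:74211118-74292331, minus strand), the repressor, was close to the limit of detection at E19.5 and is not analysed at E15.5. It had 37 reads in all, in 5 of 18 libraries. The normalised counts were 0, 4.42 and 5.28 in BCL11b+ID2+ libraries, against 0, 0 and 4.61 in BCL11b+ID2- libraries, and 7.18, 0 and 4.72 in BCL11b-ID2+ libraries. No reads were found in BCL11b-ID2-, BCL11blowID2low or DN2 libraries, for which 3 reads over the gate allow levels up to 0.925, 1.1 and 0.837. At this depth the mean of BCL11b-ID2+ cells was at least 4.29-fold higher than the floor of BCL11b-ID2- cells, and 1 library of BCL11b-ID2+ was itself at 0.

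Tiparp (ENSMUSG00000034640, chr3:65528410-65555518, plus strand), the feedback enzyme, was detected in every E19.5 library. It held 103, 130.5 and 160 in BCL11b+ID2+ libraries, against 74.6, 54.6 and 84.9 in BCL11b+ID2- libraries. BCL11b-ID2+ libraries held 85.6, 203 and 76.2, against 34.2, 68.7 and 54.7 in BCL11b-ID2- libraries. Each ID2-positive gate lay clear of its ID2-negative counterpart, yet neither difference passed. With 3 libraries per gate such separation is weak by itself, and its share over all genes is not given here. The fold was 1.84 higher in BCL11b+ID2+ than in BCL11b+ID2- cells (log2 difference 0.87 ± 0.45, 95% interval -0.06 to 1.80, limma adjusted p = 0.279). In BCL11b-ID2+ against BCL11b-ID2- cells it was 2.31-fold (log2 difference 1.11 ± 0.45, 95% interval 0.18 to 2.03, adjusted p = 0.101). BCL11blowID2low libraries held 76.4, 114 and 109.8, all above the BCL11b-ID2- libraries, at a log2 difference of 0.95 that did not pass either (adjusted p = 0.180). DN2 libraries held 53.7, 37.3 and 81.4, within the range of BCL11b+ID2- and BCL11b-ID2- cells together. Of the 9 comparisons, 2 had an unadjusted p under 0.05 for Tiparp, and limma, edgeR and DESeq2 called 0.

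**Figure D4:**
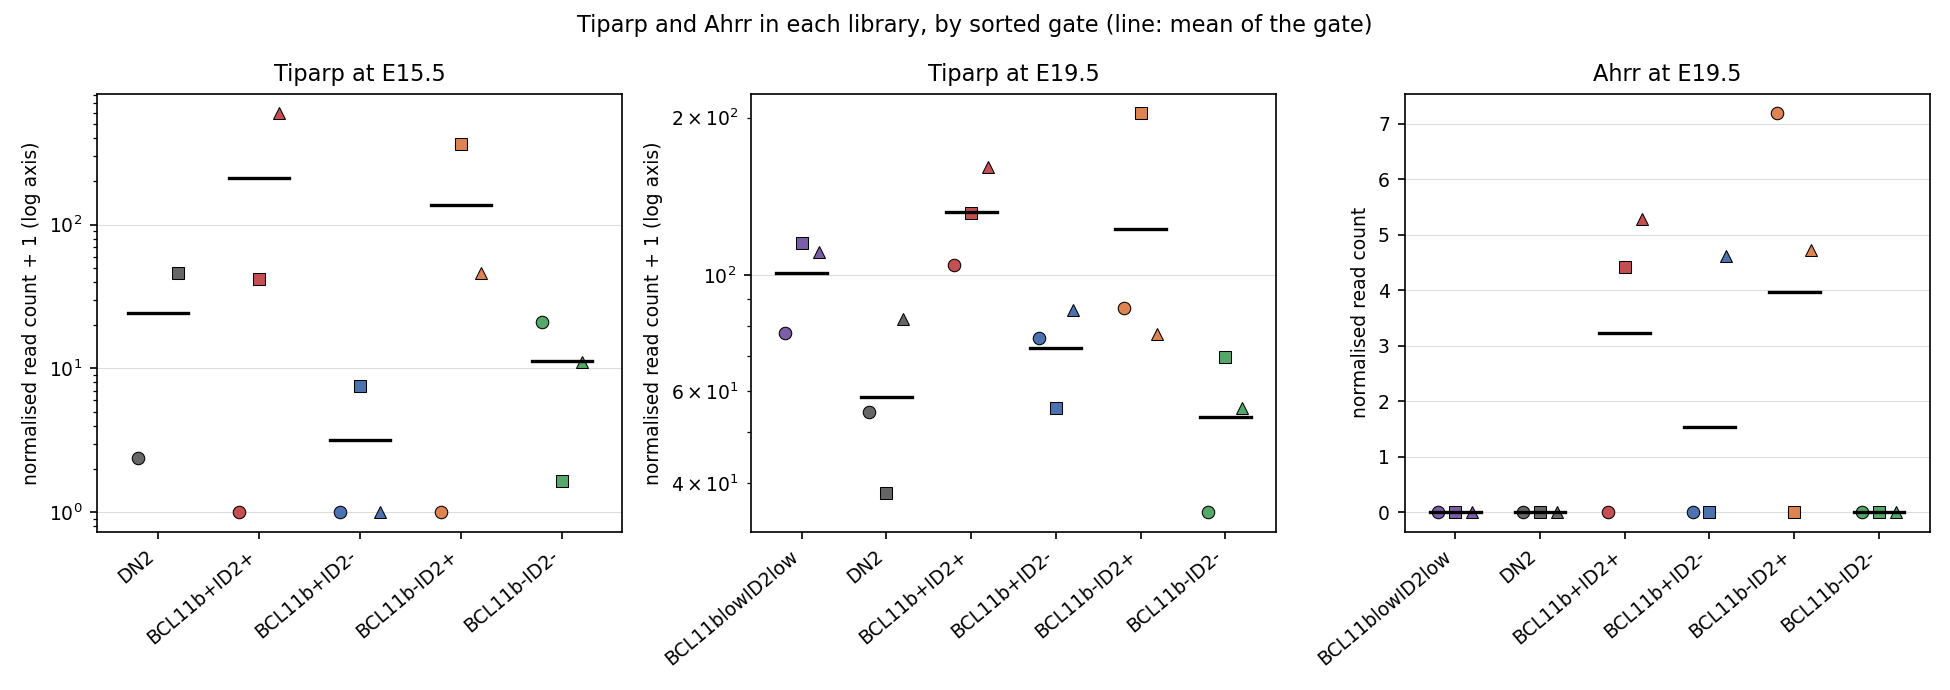
Normalised count plus 1 of Tiparp (log axis) at both stages, and normalised count of Ahrr (linear axis) at E19.5, by gate, with 1 point per library and a black line at the gate mean. Tiparp at E19.5 lies between 34.2 and 203, and Ahrr reaches 7.18 at most, with no reads in 13 of 18 libraries.

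In 2 of the E19.5 comparisons limma called no member. BCL11b+ID2- against BCL11b-ID2- cells called 0 of 4 members, with 0 at an unadjusted p under 0.05 and 0 by edgeR or DESeq2, where 14.9% of all genes were called. DN2 against BCL11b+ID2- cells also called 0 of 4, with 0 at an unadjusted p under 0.05 and 0 by the other tools, where 16.2% of all genes were called. Ahr averaged 205 ± 111 in DN2 and 118 ± 36.7 in BCL11b+ID2- cells (SD, n = 3 each), a log2 difference of 0.70 with a 95% interval of -0.11 to 1.51 (adjusted p = 0.249).

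**Figure D5:**
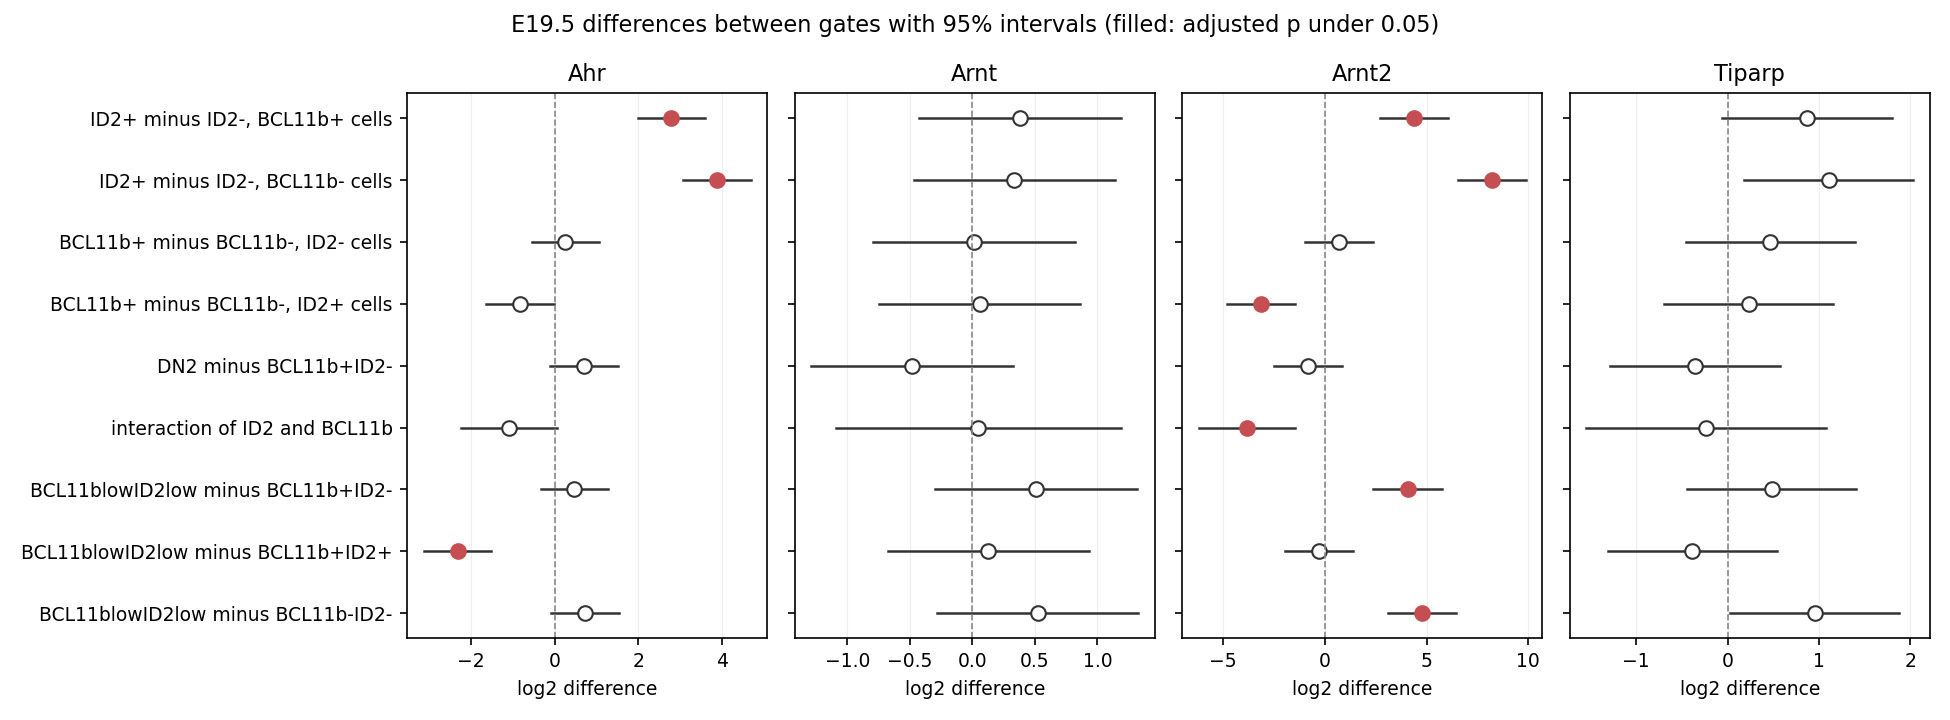
Log2 differences of Ahr, Arnt, Arnt2 and Tiparp in the 9 E19.5 comparisons, with lines for 95% intervals and filled red points where limma's adjusted p is under 0.05. Ahr and Arnt2 have 3 and 6 filled points, while Arnt and Tiparp have none.

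At E15.5, Ahr was again highest in the ID2-positive gates, with wider spread between libraries. BCL11b+ID2+ libraries held 1592, 3529.9 and 9889, against 720.5, 1101 and 1071 in BCL11b+ID2- libraries. BCL11b-ID2+ libraries held 3834, 4428 and 2999, against 1450.1, 64.7 and 908 in BCL11b-ID2- libraries, and DN2 libraries held 826 and 382. As at E19.5, the libraries of each ID2-positive gate lay above those of its ID2-negative counterpart, which is weak by itself with 3 libraries per gate. The differences did not pass. Ahr was 5.19-fold higher in BCL11b+ID2+ than in BCL11b+ID2- cells (log2 difference 2.01 ± 0.93, unadjusted p = 0.0399 and adjusted p = 0.371 in limma). It was 4.65-fold higher in BCL11b-ID2+ than in BCL11b-ID2- cells (log2 difference 3.07 ± 0.93, unadjusted p = 0.00284, adjusted p = 0.174). Leaving out single libraries took the first from 1.32 (without library 3 of BCL11b+ID2+, adjusted p = 0.684) to 2.64 (without library 1, whose Id2 was low, adjusted p = 0.272). It took the second from 1.69 (without library 2 of BCL11b-ID2-, adjusted p = 0.668) to 3.92 (without library 1 of that gate, adjusted p = 0.127), and without library 1 of BCL11b-ID2+, where Bcl11b was high, the second was 3.04 (adjusted p = 0.437).

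The other members were sparse or erratic at E15.5. Arnt2 had 44.0, 165 and 896 in BCL11b+ID2+ libraries, against 0.729, 0 and 0 in BCL11b+ID2- libraries. BCL11b+ID2- libraries carried 1 read in all. BCL11b+ID2+ cells were 1517-fold higher with a 95% counting interval of 272 to 60007 (log2 difference 7.30 ± 2.38, adjusted p = 0.168 in limma and 0.000400 in DESeq2). The log2 difference was 6.17 without library 3 of BCL11b+ID2+ (adjusted p = 0.384) and 8.33 without library 1 (adjusted p = 0.183). BCL11b-ID2+ libraries held 269, 68.0 and 218, against 222, 0 and 3.37 in BCL11b-ID2- libraries, so these overlapped. DN2 libraries held 0 and 992, and the value of 992 was above every other library of the stage. Arnt ranged from 1.37 to 4306 over the 14 libraries, with 22.0, 152 and 4.91 in BCL11b+ID2+, against 291, 4306 and 28.5 in BCL11b+ID2- libraries. It was lowest in DN2, at 1.37 and 2.45, 808-fold below the mean of BCL11b+ID2- cells, yet not called (log2 difference -6.87, adjusted p = 0.532). That ratio rests on the library at 4306, without which the log2 difference was -5.02 (adjusted p = 0.774). Tiparp reached 592 in BCL11b+ID2+ and 361 in BCL11b-ID2+ but had no reads in library 1 of both gates, and was at 45.3 or less in all other gates.

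No member was called at E15.5 by limma or edgeR. BCL11b+ID2+ against BCL11b+ID2- cells called 0 of 4 (2 at an unadjusted p under 0.05, and Arnt lower and Arnt2 higher, 2 in all, by DESeq2), where 0.719% of all genes were called. BCL11b-ID2+ against BCL11b-ID2- cells called 0 of 4 (1 at an unadjusted p under 0.05, 0 by DESeq2), against 0.467% of all genes. For BCL11b+ID2- against BCL11b-ID2- cells the count was 0 of 4 (0 at an unadjusted p under 0.05, and Arnt2 lower, 1 in all, by DESeq2), against 0.00972%. For BCL11b+ID2+ against BCL11b-ID2+ cells it was 0 of 4 (0 and 0), against 0.0778%. DN2 against BCL11b+ID2- cells gave 0 of 4 (1 at an unadjusted p under 0.05, and Arnt lower and Arnt2 higher, 2 in all, by DESeq2), and the interaction gave 0 of 4 (0 and 0). In these last comparisons 0% of all genes were called by limma, with 663 and 662 genes at an unadjusted p under 0.05 and 532 and 392 called by DESeq2. The median log2 difference of all genes ran from -0.44 to 0.00 over the E15.5 comparisons, and from -0.14 to 0.01 at E19.5.

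Around the members stand 71 further genes in 7 lists, of which 36 could be tested at E15.5 and 49 at E19.5. At E15.5 limma and edgeR called 0 of 36 in every comparison, with 3 to 9 at an unadjusted p under 0.05 and 2 to 5 called by DESeq2. At E19.5, in BCL11b+ID2+ against BCL11b+ID2- cells, 8 of 49 were higher and 5 lower, where 8.73% of all genes were called. Of the chaperones and the kinase that hold AHR in the cytosol, 1 of 4 was called, Src, at 60.3 ± 6.15 against no reads (at least 52.2-fold higher at 3 reads over the gate, adjusted p = 5.36e-05). Of coactivators and corepressors 1 of 9 was called, Nrip1, a corepressor of nuclear receptors, 3.12-fold lower at 556 ± 222 against 1733 ± 639 (adjusted p = 0.000813). Among enzymes that yield AHR ligands 1 of 4 was called, Tph1, which starts serotonin synthesis from tryptophan, at 133 ± 89.8 against no reads. Other bHLH-PAS genes gave 1 of 8, Hif3a, 5.16-fold lower at 95.9 ± 34.6 against 495 ± 76.9.

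Genes of lymphoid cells listed for a reported link to AHR, with no direction of the link set, were the list with most calls in that comparison. A higher value in this list is not a measure of AHR activity. Of 10 tested, 6 were higher and 2 lower, with a median log2 difference of 2.0 beside 0.00 over all genes. Il1rl1, the receptor for interleukin-33, stood at 3624 ± 389 in BCL11b+ID2+ against 0.615 in BCL11b+ID2- cells, 5894-fold with a 95% counting interval of 1631 to 48675. Tgfbi was at least 61.1-fold higher at 70.7 ± 30.0, Entpd1, the ectonucleotidase CD39, 94.3-fold (95% counting interval 25.7 to 785), and Gpr15, a homing receptor, at least 15.7-fold. Kit, the receptor for stem cell factor, was 6.92-fold higher at 1201 ± 59.3 in BCL11b+ID2+ against 173 ± 40.8 in BCL11b+ID2- cells (adjusted p = 5.54e-07). It is given for this comparison after its values were seen. Il17a fell to 2.58 ± 4.47 in BCL11b+ID2+ cells, against 52.8 ± 35.0 in BCL11b+ID2- cells, and Notch1 to 331 ± 93.0 against 652 ± 255. The call of Il17a was lost with edgeR (adjusted p = 0.0672). That of Notch1 was lost with only the groups compared and without BCL11b+ID2+ library 2 or 4 or BCL11b+ID2- library 1 (adjusted p up to 0.198). Il1rl1 is itself a marker of ILC2. The ILC2 marker list (9 of 9 with reads) summed to 5325 to 5807 in BCL11b+ID2+ libraries, against 200 to 488 in BCL11b+ID2- libraries, where Il5 and Klrg1 were at 0. The part of that difference in the values of Ahr, Arnt2 and these lists was not tested.

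In BCL11b-ID2+ against BCL11b-ID2- cells, 8 of 49 list genes were higher and 8 lower, where 15.9% of all genes were called. Gpr15 was 73.7-fold higher at 296 ± 64.4 against 4.02 ± 5.38 (adjusted p = 4.63e-05), and Tph1 200.4-fold higher at 64.1 ± 20.2 against 0.320, with a 95% counting interval of 35.7 to 7941. Of the PARP relatives of Tiparp 3 of 11 were higher and 1 lower, among them Parp4, 4.63-fold higher at 275 ± 68.5 against 59.3 ± 28.9. Hif3a was 16.7-fold lower at 22.3 ± 11.9 against 373 ± 112, Kit 3.97-fold lower at 266 ± 115 against 1057 ± 183, and Notch1 2.49-fold lower at 622 ± 164 against 1547 ± 231. The list of lymphoid genes linked to AHR had 1 of 10 higher and 2 lower, with a median log2 difference of -0.06 beside -0.01 over all genes. Kit differed in opposite directions between the ID2 gates of BCL11b-positive and BCL11b-negative cells, and Ahr was higher in the ID2-positive gate of both. The relation of Kit to Ahr was not tested.

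NK cell and ILC1 markers (7 of 7 with reads) summed to 16617 to 20299 in BCL11b-ID2+ libraries, against 110 to 257 in BCL11b-ID2- libraries. The myeloid list summed to 24.2 to 49.1 in BCL11b-ID2+ libraries, against 2096 to 2962 in BCL11b-ID2- libraries, where Mpo and Csf1r were the highest. Cd14 was at 0 in both gates, and Cebpa was at 0 in BCL11b-ID2+ cells only. The part of these differences in the member values was not tested. The same NK cell and ILC1 list summed to 720 to 1373 in BCL11b+ID2+ libraries, against 4754 to 5972 in BCL11b+ID2- libraries. In BCL11b+ID2- cells 6 of 7 had reads, with Gzma and Il2rb the highest and Tbx21 at 0. Il2rb and Gzma were also the highest in BCL11b-ID2+ cells, so the sum by itself is not a measure of NK cells or ILC1 in either gate. Ahr was higher in BCL11b+ID2+ than in BCL11b+ID2- cells. High Ahr stood beside a high sum of the NK cell and ILC1 list in BCL11b-ID2+ cells and beside high ILC2 markers in BCL11b+ID2+ cells. In BCL11b+ID2- cells the NK cell and ILC1 sum of 4754 to 5972 stood beside Ahr at only 118 ± 36.7.

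Il23r, the receptor for interleukin-23, was 13.5-fold higher in BCL11blowID2low cells, at 744 ± 212 against 54.9 ± 37.2 in BCL11b+ID2- cells (adjusted p = 0.00553). With 5 other markers of type 3 ILC (Il1r1, Ccr6, Cxcr5, Il22 and Lta) it summed to 1694 to 2606 in BCL11blowID2low libraries, against 253 to 559 in BCL11b+ID2- libraries. The same 6 genes summed to 426 to 627 in BCL11b+ID2+ libraries and to 37.6 to 128 in BCL11b-ID2+ libraries, where Il22 was at 0. The gamma-delta T cell marker list (5 of 5 with reads) summed to 7415 to 8668 in BCL11blowID2low and 8215 to 9640 in BCL11b+ID2- libraries. It summed to 2673 to 2943 in BCL11b+ID2+ and 944 to 1529 in BCL11b-ID2+ libraries. The part of these marker differences in the member values was not tested. Ahr was at 163 ± 37.0 in BCL11blowID2low and 118 ± 36.7 in BCL11b+ID2- cells, and at 1430.1 ± 186 in BCL11b-ID2+ cells. Slc7a5, an amino acid transporter listed with the AHR battery, was 4.74-fold higher in BCL11blowID2low than in BCL11b+ID2- cells (377 ± 198 against 79.6 ± 45.3). Over these 49 genes, BCL11blowID2low cells had 5 higher and 5 lower than BCL11b+ID2- cells, 2 higher and 6 lower than BCL11b+ID2+ cells, and 7 higher and 6 lower than BCL11b-ID2- cells, where 6.91%, 4.43% and 14% of all genes were called.

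Of the same 49 genes, BCL11b+ID2- cells had 8 higher and 11 lower than BCL11b-ID2- cells, where 14.9% of all genes were called, with Kit 6.10-fold lower at 173 ± 40.8 against 1057 ± 183. BCL11b+ID2+ cells had 9 higher and 3 lower than BCL11b-ID2+ cells, where 6.03% were called, with Epas1, a hypoxia-inducible factor that pairs with ARNT, at 111 ± 48.4 against 0.655 ± 0.607 (169-fold, 95% counting interval 57.2 to 823). DN2 cells had 9 higher and 15 lower than BCL11b+ID2- cells, where 16.2% were called. There Hsp90aa1, a chaperone of AHR, was 3.03-fold higher at 974 ± 200.4 against 322 ± 113, and the clock factor Arntl 7.43-fold lower at 23.8 ± 15.6 against 177 ± 49.1. The interaction had 7 higher and 3 lower, where 9.28% were called, with Kit at a log2 difference of 4.87 ± 0.40 (adjusted p = 2.82e-08).

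The list called the AHR battery here holds 10 genes named as AHR-induced metabolism genes, Slc7a5 and Nfe2l2 among them. A difference in it is not a measure of AHR activity. Of the 10 genes, 6 were in the E19.5 table and 3 could be tested. Slc7a5, one of these, was 2.38-fold lower in BCL11b-ID2+ cells, at 154 ± 95.1 against 367 ± 26.1 in BCL11b-ID2- cells (adjusted p = 0.0347), a call lost in 7 alternatives, with edgeR (adjusted p up to 0.163 over them) among them. It was lost without BCL11b-ID2+ library 2 or 4 and without any single BCL11b-ID2- library. In BCL11b+ID2+ cells Slc7a5 stood at 134 ± 14.1, against 79.6 ± 45.3 in BCL11b+ID2- cells, and was not called. Cyp1b1, a cytochrome P450, had no reads in BCL11b+ID2+, BCL11b-ID2+, BCL11blowID2low or DN2 cells, and averaged 11 ± 19 in BCL11b-ID2- cells. Nqo1, a quinone reductase, averaged 5.32 ± 4.69 in BCL11b+ID2+ cells with no reads in BCL11b+ID2- cells, and had no reads in BCL11b-ID2+ cells with 6.36 ± 2.16 in BCL11b-ID2- cells. Nfe2l2, the antioxidant factor NRF2, was at 370 ± 99.6 in BCL11b+ID2+, against 195 ± 47.3 in BCL11b+ID2- cells, and at 399 ± 83.4 in BCL11b-ID2+, against 331 ± 76.3 in BCL11b-ID2- cells, and was not called (SD, n = 3 each).

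The genes whose pattern over the 18 E19.5 libraries was most like that of Ahr, among 6279 genes with a mean of at least 100 in some gate, were Ctsd and Itm2c (Pearson r = 0.908 on log2 values for both), Klrb1b (0.895), AU020206 (0.886) and Tigit (0.885). All 5 were highest in BCL11b-ID2+ cells, as Ahr was, which their choice by likeness to Ahr favours. Arnt2 had r = 0.829 with Ahr and ranked 27, Tiparp 0.515 and Arnt 0.196. For Tiparp the nearest were Capza1 (0.844), Kif1b (0.830), Ier5 (0.824), Actr3 (0.818) and Smco4 (0.809). Over the 14 E15.5 libraries, among 7200 genes, Ahr ran closest to Clcn3 (0.858), Nr3c1 (0.836), Pom121 (0.831), Cd53 (0.821) and Birc6 (0.815), with Arnt2 at 0.571, Tiparp at 0.523 and Arnt at 0.00609. Tiparp at E15.5 was nearest to Rnf114 (0.896), Gla (0.854), Ppp2r2d (0.843), Tk2 (0.840) and Ythdc1 (0.828). The points share library depth and the sorted gates, so these values describe likeness over the libraries only.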

How the data were processed

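Measurements were made on 32 bulk libraries, of which 14 are from E15.5 and 18 from E19.5. Per the labels' protocols, RNA of flow-sorted cells was amplified with the Ovation RNA-seq System V2, fragmented on a Covaris M220 and bar-coded with an Ovation Ultralow kit. Per the submitters' processing notes, the tools were Trim Galore 0.50, STAR 2.6.0a and DESeq2 1.18.1 with GRCm38. The counter, its annotation and its strand setting are not given in the sources used here, so reads of overlapping or antisense genes cannot be told apart. The deposited values are a signal, the authors' DESeq-normalised read counts, with 1 table per stage. Dividing each column by the value of 1 read gave whole reads for 100% of values (tolerance 0.01 reads). E15.5 columns were matched to samples by barcode number. There were 0 pairs of identical libraries.

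Symbols and exon lengths came from GENCODE M21 on GRCm38, which left 5 and 6 identifiers without a symbol. Differences were tested on log2(value + 1), which understates those of low genes, with limma 3.58.1 (R 4.3.3, trend and robust moderation). All libraries of a stage entered 1 fit. A gene needed 10 or more in 3 or more libraries of the stage, which kept 10289 at E15.5 and 13840 at E19.5. P-values were adjusted by Benjamini-Hochberg over all genes of each of 15 comparisons, at a threshold of 0.05. Folds are ratios of means. Against a gate without reads they are lower bounds at 3 reads over the gate, and with 1 to 3 reads they carry a 95% counting interval. Alternatives were a pseudocount of 8, no filter, TMM scaling, edgeR 4.0.16 and DESeq2 1.42.0 on recovered reads, only the groups compared, a replicate block and leaving out each library. The test script was tested on simulated data.

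The members, lists and comparisons were chosen with earlier results of these data known. All 5 members are named. List genes named as called have an adjusted p under 0.05. They come from the first 6 per comparison and direction by log2 difference, apart from Kit as stated above. Only some of those genes are named, so an unnamed called gene can differ more than a named one. The genes of like pattern are the 5 of highest Pearson r, leaving out predicted, mitochondrial and ribosomal protein genes. Battery genes below the filter and marker genes are given as values only. Protein sequences were not used here, and 1 marker gene is not reported here.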

Additional observations from a re-analysis of the deposited data

Results flagged for a closer look

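The ID2 difference of Arnt2 at E19.5 itself differed between BCL11b-positive and BCL11b-negative cells, by a log2 interaction of -3.84 in limma. Arnt2 was 29.2-fold higher in BCL11b+ID2+ than in BCL11b+ID2- cells and 966-fold higher in BCL11b-ID2+ than in BCL11b-ID2- cells, and the ID2-negative gates held 5 reads and 1 read. This test of the difference is what set the gene apart (adjusted p = 0.0360, and 0.0980 at most when a single library was left out). With 3 libraries or fewer per gate, no formal test for a single library far from the others of its gate was run, and the effect of leaving out each library is given in its place.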

How the results depend on the processing

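The calls of Ahr and Arnt2 between the ID2-positive and ID2-negative gates of E19.5 held under every alternative. With DESeq2 the number of members called at E15.5 was 2 in BCL11b+ID2+ against BCL11b+ID2- cells, 1 in BCL11b+ID2- against BCL11b-ID2- cells and 2 in DN2 against BCL11b+ID2- cells, each in place of 0. With only the groups compared it was 2 in place of 1 between the E19.5 ID2-positive gates and 0 in place of 1 in BCL11blowID2low against BCL11b+ID2- cells, and without the filter it was 0 in place of 1 in the E19.5 interaction. Leaving out single libraries gave 0 to 1 in the comparison of the E19.5 ID2-positive gates and 0 to 1 in the E19.5 interaction. Arnt2 in DN2 against BCL11b+ID2- cells at E15.5 turned from a log2 difference of 4.71 to -0.26 without DN2 replicate 2 and was 9.69 without replicate 1, with none of these called. Of 125 list calls at E19.5, 71 held in every alternative that tested them. Calls over all genes at E15.5 ran over the alternatives from 17 to 1089 (74 as reported), 28 to 414 (48), 0 to 335 (1), 0 to 634 (8), 0 to 532 (0) and 0 to 392 (0), in the order in which the comparisons were given. Without single libraries the first 2 became 15 to 82 and 4 to 15. At E19.5 they fell to 381 from 957 for BCL11blowID2low against BCL11b+ID2- cells and to 340 from 613 against BCL11b+ID2+ cells with only the groups compared. The labels do not say that library numbers pair the libraries. Correlations of same-numbered deviations were -0.046 to 0.039 for E15.5 and 0.002 to 0.129 for E19.5. At E19.5 all 45 were above 0 (median 0.054, against -0.020 for other numbers), and 17 of 18 libraries were closest to their own number. Same-numbered E19.5 libraries thus deviated together to a small degree, which is known from the data and not from the design. The main fits leave this out. The replicate block changed no call of a member, with the Arnt2 interaction at adjusted p = 0.0318 under it. Where an alternative changed a call, the cause was not tested, and the reads behind Ahrr, and behind Arnt2 in ID2-negative gates, limit what could be seen.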
